A study of Mus musculus with 47 samples.

Results

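The 10 genes described here are Myoc and 9 genes known as markers of the fibroblasts of the meninges and of the perivascular space: Dcn, Lum, Igf2, Slc47a1, Col1a1, Col1a2, Col3a1, Ptgds and Aldh1a2. They were taken by symbol, and the Ensembl identifier of each was found in the count tables of both brain regions, among 33139 rows for brainstem and 31751 for hippocampus. The list was drawn up with results of these data known, and Myoc was chosen by its fold change and adjusted p between the genotypes on the standard diet in brainstem. Its values are therefore given as a description without a p value, and calls among the other members are descriptive as well.

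RNA was sequenced from brainstem and hippocampus of male C57BL/6 mice. WT mice and transgenic (TG) mice were fed a standard diet (SD) or a high-fat diet (HFD) from weaning to about a year of age. The TG animals were homozygous for a transgene under control of the Thy1 promoter, which drives expression in neurons. They were kept as a colony of their own beside a parallel WT colony, so that genotype and colony cannot be told apart. Brainstem had 5 libraries of WT_SD and 6 each of WT_HFD, TG_SD and TG_HFD, and hippocampus had 6 libraries in each of these groups. By its description the study took both regions from 6 animals per group, so that the regions can share animals, but the labels do not link libraries of the 2 regions to the same mouse. Total counts ran from 10020784 to 15078812 per library in brainstem and from 11945971 to 17328447 in hippocampus. No pair of libraries within a group agreed within sampling noise.

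Fibroblasts of the leptomeninges and of the perivascular space are the brain's collagen-producing cells and form a sheet of extracellular matrix over its surface and around its larger vessels. They also make retinoic acid, transport organic anions and cations, and secrete proteins into the cerebrospinal fluid. They are few beside neurons and glia, and a dissected piece of brain carries more or fewer of them with the membrane left on it. In bulk tissue, fewer cells of a type and less RNA per cell cannot be told apart. Some members have other sources in brain: Ptgds is also made by oligodendrocytes and choroid plexus, and Igf2 by choroid plexus and endothelium.

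Promoter sequences in the RefSeq table of build GRCm38.p6 were found for 6 of the 10 members, namely Myoc, Igf2, Col1a2, Col3a1, Ptgds and Aldh1a2, and Dcn, Lum, Slc47a1 and Col1a1 had no entry. The 250 bases before the start are shown for Myoc and Aldh1a2, both on the plus strand and with matches to the searched motifs in capitals. Among the members tested, Myoc had the largest fitted difference between groups, and Aldh1a2 differed most between single libraries. The windows lie at chr1:162638900-162639149 and chr9:71215539-71215788.
Myoc: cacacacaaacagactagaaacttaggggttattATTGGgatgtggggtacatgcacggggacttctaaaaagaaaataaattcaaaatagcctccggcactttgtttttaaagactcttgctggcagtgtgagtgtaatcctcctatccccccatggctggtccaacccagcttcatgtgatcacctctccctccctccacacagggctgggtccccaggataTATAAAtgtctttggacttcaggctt
Aldh1a2: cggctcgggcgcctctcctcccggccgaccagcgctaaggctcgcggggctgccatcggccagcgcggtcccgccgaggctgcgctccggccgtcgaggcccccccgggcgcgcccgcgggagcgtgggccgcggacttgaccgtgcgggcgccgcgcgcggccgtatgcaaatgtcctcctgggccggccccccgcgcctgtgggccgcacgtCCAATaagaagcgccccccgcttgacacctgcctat
Both strands were searched for the TATA box motif TATAAA, for the CCAAT box, for the GC box motif GGGCGG and for the forkhead motif TGTTTAC, and no match overlapped another. Myoc had TATAAA from 26 to 21 bases before its start, a motif found in 12.4% of the 32851 windows of this length. It also had CCAAT on the other strand, a motif in 33.8% of windows. Aldh1a2 had CCAAT from 36 to 32 bases before its start. Col3a1 had TATAAA, Col1a2 had CCAAT and GGGCGG (in 32.7% of windows), Igf2 had GGGCGG in 2 of its 4 windows, 1 of which held CCAAT as well, and Ptgds had none of the motifs. TGTTTAC, found in 3.17% of windows, was in no window of a member. A match describes letters in a window and is no evidence of a bound factor.

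The level of each member was expressed as CPM, its share of the mapped counts of a library, scaled by TMM, which sets a common scale for the libraries of a region. Only CPM per kilobase of exon allows levels of different genes to be compared. On that scale Ptgds, the lipocalin-type prostaglandin D synthase secreted into the cerebrospinal fluid, stood far above the rest in brainstem, with a level of 361 ± 78.2 CPM per kb (SD, n = 23). Dcn followed with 5.35 ± 0.945 CPM per kb and Myoc with 4.68 ± 1.35 CPM per kb, whose values overlap. Aldh1a2, Col1a2 and Lum had mean levels of 2.80, 1.53 and 1.399 CPM per kb. Slc47a1, Col1a1 and Col3a1 were below 1 CPM per kb, and Igf2 was the lowest with 0.0615 CPM per kb. In hippocampus the order began in the same way, with 122 ± 57.0 CPM per kb for Ptgds, 10.1 ± 1.90 for Dcn and 5.73 ± 1.30 for Myoc (SD, n = 24).

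Depth limits what can be said of the weaker members. A gene entered the tests of a region when its counts averaged 50 or more there, which 5 members did in brainstem (Myoc, Dcn, Col1a2, Ptgds and Aldh1a2) and 6 in hippocampus (the same and Lum). Col1a1 missed this minimum narrowly, with a mean of 47.5 counts in brainstem and 45.9 in hippocampus. Lum in brainstem had 42.3 counts, Col3a1 34.6 and 17.8 in the 2 regions, and Slc47a1 28.7 and 11.04. Igf2, an imprinted growth factor, had between 0 and 12 counts in a library. At this depth Igf2 passed neither this minimum nor the more lenient filter used below, so that its group differences were not tested with them.

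Myoc, which encodes the secreted olfactomedin-domain protein myocilin known from the trabecular meshwork of the eye, differed between the genotypes in brainstem. In WT_SD its level was 6.64, 7.13, 4.90, 7.06 and 6.61 CPM in replicates 1, 4, 6, 7 and 8. In TG_SD it ran from 9.79 to 12.5 CPM with a median of 11.7. All 6 TG_SD libraries lay above all 5 WT_SD libraries. The group means were 11.3 ± 1.21 CPM in TG_SD and 6.47 ± 0.907 CPM in WT_SD (SD), a ratio of 1.75, and the fitted log2 fold change was 0.85 with an SE of 0.15. Groups that do not overlap in this contrast were found for 0.487% of the 13340 genes tested, and 0.255% were higher in TG_SD without overlap. Myoc was called in the edgeR model, which included 4 surrogate variables, a call requiring both an adjusted p up to 0.05 and a log2 fold change of 0.3 or more in either direction. Such a call was made for 19 genes, or 0.142% of those tested (0.12% were called higher), and Myoc ranked 6 by log2 fold change among the 16 that were higher.

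WT_SD had the lowest mean of the 4 brainstem groups. WT_HFD libraries spread from 6.66 to 16.5 CPM with a median of 8.22, and TG_HFD libraries from 7.97 to 13.4 CPM with a median of 10.9. These 2 groups overlapped with each other over most of their range. In brainstem 0.697% of the genes tested had groups without overlap for TG_HFD/WT_HFD, 0.45% for WT_HFD/WT_SD and 0.21% for TG_HFD/TG_SD. The log2 fold change of Myoc was 0.52 (SE 0.18) for TG_HFD/WT_HFD, 0.32 (SE 0.17) for WT_HFD/WT_SD and -0.01 (SE 0.15) for TG_HFD/TG_SD. The difference between the genotype effects on the 2 diets was -0.33 (SE 0.24). These values depended on the surrogate variables: without them they were 0.15 for TG_HFD/WT_HFD, 0.59 for WT_HFD/WT_SD, -0.08 for TG_HFD/TG_SD and -0.67 for the difference of effects, and with the GC correction alone 0.21, 0.55, -0.10 and -0.65. Myoc was called in none of these 4 contrasts in any of these fits. Of all genes tested in brainstem, 0.0525% were called for TG_HFD/WT_HFD, 0% for WT_HFD/WT_SD, 0.0075% for TG_HFD/TG_SD and 0.0075% for the interaction.

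**Figure D1:**
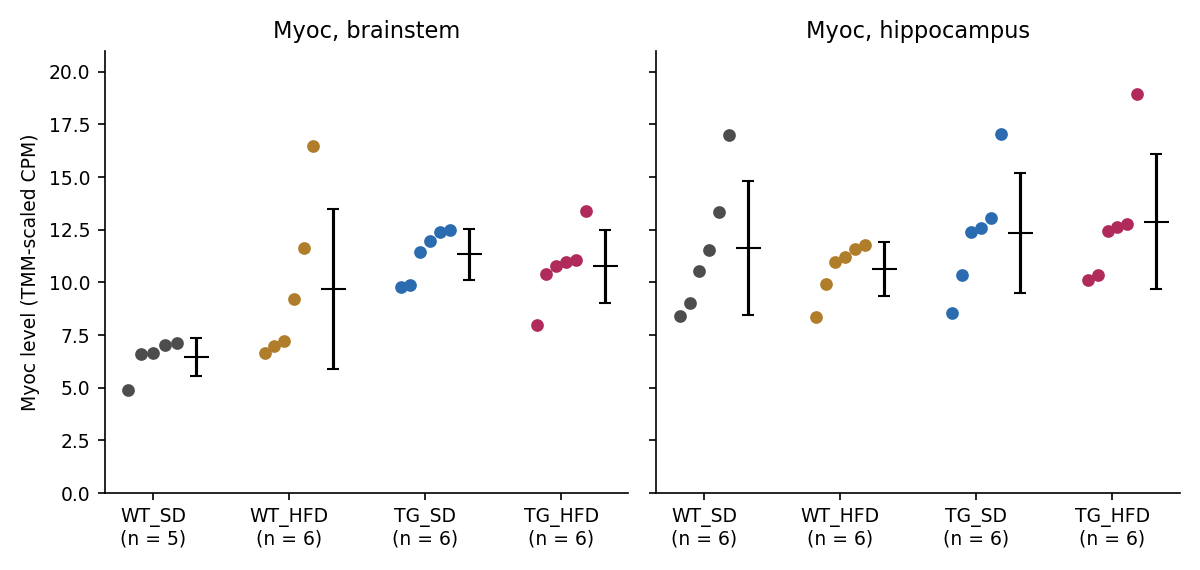
Level of Myoc in every library (points, TMM-scaled CPM on a linear axis from 0) by group in brainstem and hippocampus, with the mean and SD of each group as a bar beside the points. The 6 TG_SD libraries of brainstem lie between 9.79 and 12.5 CPM, above all 5 WT_SD libraries, whereas all groups overlap in hippocampus.

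The call of Myoc depended on 1 library and, in edgeR fits of all 4 groups, on the surrogate variables. Replicate 6 of WT_SD, at 4.90 CPM the lowest of all brainstem libraries, also had the lowest levels of Col1a1 and Col1a2. It was not low for all members, since its Dcn level of 38.3 CPM was the highest of WT_SD. Without this library the log2 fold change for TG_SD/WT_SD fell to 0.67 and Myoc was no longer called. Myoc was called in the other 22 of 23 fits that left out 1 library. The direction was the same in all 23. With 0 or 1 surrogate variable the log2 fold change was 0.82 and 0.89, and Myoc was not called. With 2 or 3 it was 0.90 and 0.85, and Myoc was called. It was also called without surrogate variables when the fit held only the 2 groups compared (0.82) and in DESeq2 (0.82).

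In hippocampus Myoc did not separate the groups. Its level ran from 8.39 to 17 CPM in WT_SD (median 11.03), from 8.38 to 11.8 in WT_HFD (median 11.1), from 8.57 to 17.03 in TG_SD (median 12.5) and from 10.1 to 18.95 in TG_HFD (median 12.6). All 4 groups overlapped. Without overlap were 0.271% of the genes tested in hippocampus for TG_SD/WT_SD, 3.91% for TG_HFD/WT_HFD, 0.49% for WT_HFD/WT_SD and 0.143% for TG_HFD/TG_SD. The log2 fold change was 0.24 (SE 0.15) for TG_SD/WT_SD and 0.47 (SE 0.19) for TG_HFD/WT_HFD, both in the direction seen in brainstem and neither called, beside 0.0904% and 0.226% of genes called in these contrasts. It was -0.20 (SE 0.16) for WT_HFD/WT_SD and 0.03 (SE 0.13) for TG_HFD/TG_SD. Without surrogate variables the hippocampus values were smaller, 0.10 for TG_SD/WT_SD and 0.25 for TG_HFD/WT_HFD. With the GC correction alone they were 0.11 and 0.30. Whether the genotype effect differed between regions was not tested.

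Ptgds had the lowest adjusted p after Myoc in the brainstem genotype contrast on SD. Its level was 620, 484, 433, 487 and 531 CPM in the WT_SD replicates 1, 4, 6, 7 and 8, and it ran from 428 to 753 CPM in TG_SD with a median of 671. The TG_SD group reached above and below WT_SD, so that the groups overlapped. TG_SD exceeded WT_SD by 0.32 on the log2 scale (SE 0.12, adjusted p = 0.286 in edgeR). Among the members other than Myoc this was the lowest adjusted p in any of the 5 contrasts of either region. It passed the threshold, with a log2 fold change of 0.37, only when no filter on low counts was applied.

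Aldh1a2, the enzyme that makes retinoic acid in the meninges, was also higher in TG_SD than in WT_SD by its mean in brainstem, with wider errors. Its level was 7.03, 3.23, 4.90, 4.18 and 4.71 CPM in the WT_SD replicates 1, 4, 6, 7 and 8. The TG_SD libraries ran from 5.22 to 8.87 CPM with a median of 7.56. WT_SD replicate 1 lay within the TG_SD range, and the other WT_SD libraries below it. The log2 fold change was 0.50 (SE 0.26) for TG_SD/WT_SD, 0.51 (SE 0.28) for WT_HFD/WT_SD and -0.23 (SE 0.31) for TG_HFD/WT_HFD. No contrast of Aldh1a2 was called.

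Among the proteoglycans and collagens, Dcn (decorin, a small leucine-rich proteoglycan that binds collagen fibrils) had a brainstem level from 25.99 to 38.3 CPM in WT_SD (median 26.5) and from 29.0 to 39.2 CPM in TG_SD (median 32.7). The groups overlapped, and the fitted log2 fold change was 0.01 (SE 0.095), beside 0.17 (SE 0.14) without surrogate variables. In hippocampus Dcn had its largest difference between diets, 0.24 (SE 0.10) for WT_HFD/WT_SD, with an adjusted p of 0.721 in edgeR. Col1a2, the alpha-2 chain of type I collagen, differed by 0.17 (SE 0.10) for TG_SD/WT_SD in brainstem and by -0.24 (SE 0.18) in hippocampus. Lum (lumican, a proteoglycan of the same family as decorin) passed the minimum count in hippocampus only. There its log2 fold changes between groups lay between -0.21 and 0.08, and its value for the interaction was -0.24 (SE 0.20).

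Over all members, 1 of 55 tests in the 2 regions and 5 contrasts was called, that of Myoc. Over all genes tested 0.142% were called in the contrast of this call, and between 0% and 0.226% over all 10. Since Myoc was chosen by its adjusted p in that contrast, the call is no result about the members. Of the 45 tests without Myoc, 2 had an unadjusted p of at most 0.05, Ptgds in brainstem for TG_SD/WT_SD and Dcn in hippocampus for WT_HFD/WT_SD. Over all genes the share with such a p was 10.5% and 6.4% in these contrasts, and between 4.83% and 11.3% over all 10, so that 2 of 45 is not above the background. In the brainstem contrast TG_SD/WT_SD all 5 tested members had a positive log2 fold change with a median of 0.32, beside a median of 0.00 over all genes tested. The sign of Myoc (0.85) was fixed by its choice from this contrast, and Dcn had only 0.01 (SE 0.095). The 5 members share libraries and cells, so that their common sign is no repeated observation. For WT_HFD/WT_SD, which shares the WT_SD group, all 5 were positive too, with a median of 0.18. In TG_HFD/WT_HFD 2 of the 5 were positive, with a median of -0.10, and in TG_HFD/TG_SD 1, with a median of -0.07. For the interaction 0 of the 5 were positive, with a median of -0.30. In hippocampus the medians over the 6 tested members were 0.09 for TG_SD/WT_SD and 0.06 for TG_HFD/WT_HFD. These hippocampus values depended on the surrogate variables. Without them, TG_SD/WT_SD gave -0.31 for Ptgds, -0.51 for Col1a2 and -0.55 for Aldh1a2, beside 0.10 for Myoc and Dcn and 0.01 for Lum. For TG_HFD/WT_HFD the values were -0.10, -0.34, -0.08, 0.25, 0.16 and -0.14 in the order Ptgds, Col1a2, Aldh1a2, Myoc, Dcn, Lum. The genotype and diet contrasts share groups and are not independent of each other.

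**Figure D2:**
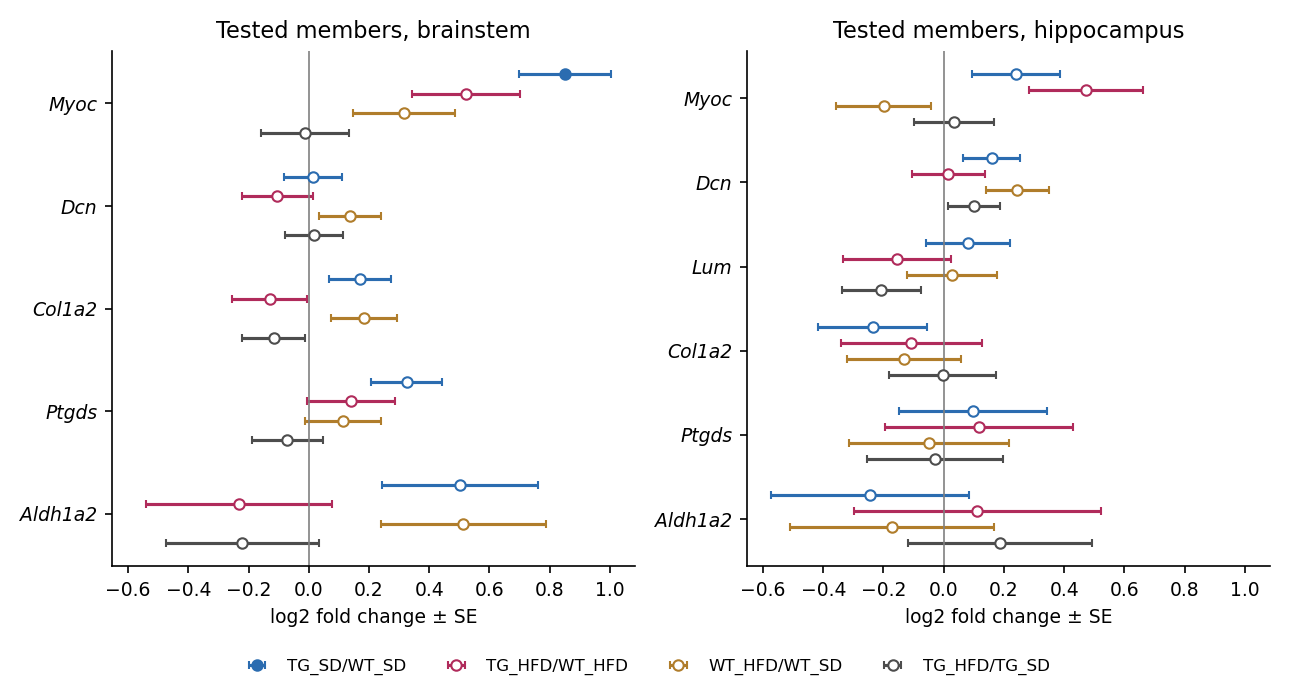
Fitted log2 fold change (point) and SE (bar) of each tested member for the 4 contrasts between groups, in brainstem with 5 members and in hippocampus with 6. A filled point marks a called member, which is Myoc for TG_SD/WT_SD in brainstem alone.

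The members under the minimum count, other than Igf2, were fitted with the more lenient filter of edgeR (filterByExpr). Of the 35 tests this added for Lum, Slc47a1, Col1a1 and Col3a1, none was called by edgeR and none had an unadjusted p of at most 0.05. Under this filter 0.107% of genes were called for TG_SD/WT_SD and 0.0336% for TG_HFD/WT_HFD in brainstem. In hippocampus 0.0982% were called for TG_SD/WT_SD, 0.144% for TG_HFD/WT_HFD and 0.0231% for WT_HFD/WT_SD. The lowest adjusted p was 0.659 in edgeR, for Col3a1 (type III collagen) in hippocampus with a log2 fold change of 0.59 (SE 0.39) for TG_HFD/WT_HFD. For TG_SD/WT_SD in brainstem, Col1a1 had a value of -0.03 (SE 0.19) and Slc47a1, the proton-coupled exporter of organic cations, 0.38 (SE 0.37). Lum in brainstem had -0.04 (SE 0.23) in this contrast, and its largest value was -0.32 (SE 0.28) for TG_HFD/WT_HFD.

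The members differed more between single libraries than most genes did. Around the group means, the SD of log2 CPM was 0.31 for Myoc in brainstem and 0.31 in hippocampus, beside medians over all tested genes of 0.16 and 0.14. Aldh1a2 had the widest spread of the tested members, 0.46 in brainstem and 0.67 in hippocampus, which was wider than in 99.1% and 99.9% of the genes tested. Ptgds followed in hippocampus with 0.60, wider than in 99.8%. Of the members below the minimum count, Slc47a1 had a ratio of highest to lowest library of 7.48 in brainstem and 25.3 in hippocampus, beside 3.96 and 8.08 for Aldh1a2, at counts as low as 1. Among genes of similar level, Aldh1a2 exceeded 98.1% and 98.9% of them. Col1a2 had an ordinary spread in brainstem, 0.20 (wider than in 70.1% of genes), and a wide one in hippocampus, 0.43 (99.5%).

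Single libraries carried much of this spread, and several members were high in the same ones. In brainstem, replicate 1 of WT_HFD had the highest levels of 4 members, with 16.5 CPM of Myoc, 920 of Ptgds, 12.8 of Aldh1a2 and 7.17 of Slc47a1, the last being more than any other library of its group, whose median was 1.96. Replicate 4 of WT_HFD was among the top 3 of 23 libraries for 6 members. At the other end, replicate 6 of WT_SD was among the lowest 3 for 6 members and replicate 6 of TG_HFD for 5. Replicate 6 of WT_SD was also among the top 3 for 1 member. In hippocampus, replicate 3 of WT_SD was among the top 3 of 24 libraries for 9 of the 10 members, and replicate 5 of TG_HFD for 7. Replicate 5 of TG_HFD had 482 CPM of Ptgds and 11.5 of Aldh1a2, whereas the medians of its group were 143 and 2.68. Replicate 8 of TG_SD was among the lowest 3 for 6 members. In brainstem both libraries named as high were of WT_HFD, whereas in hippocampus they were of WT_SD and TG_HFD.

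**Figure D3:**
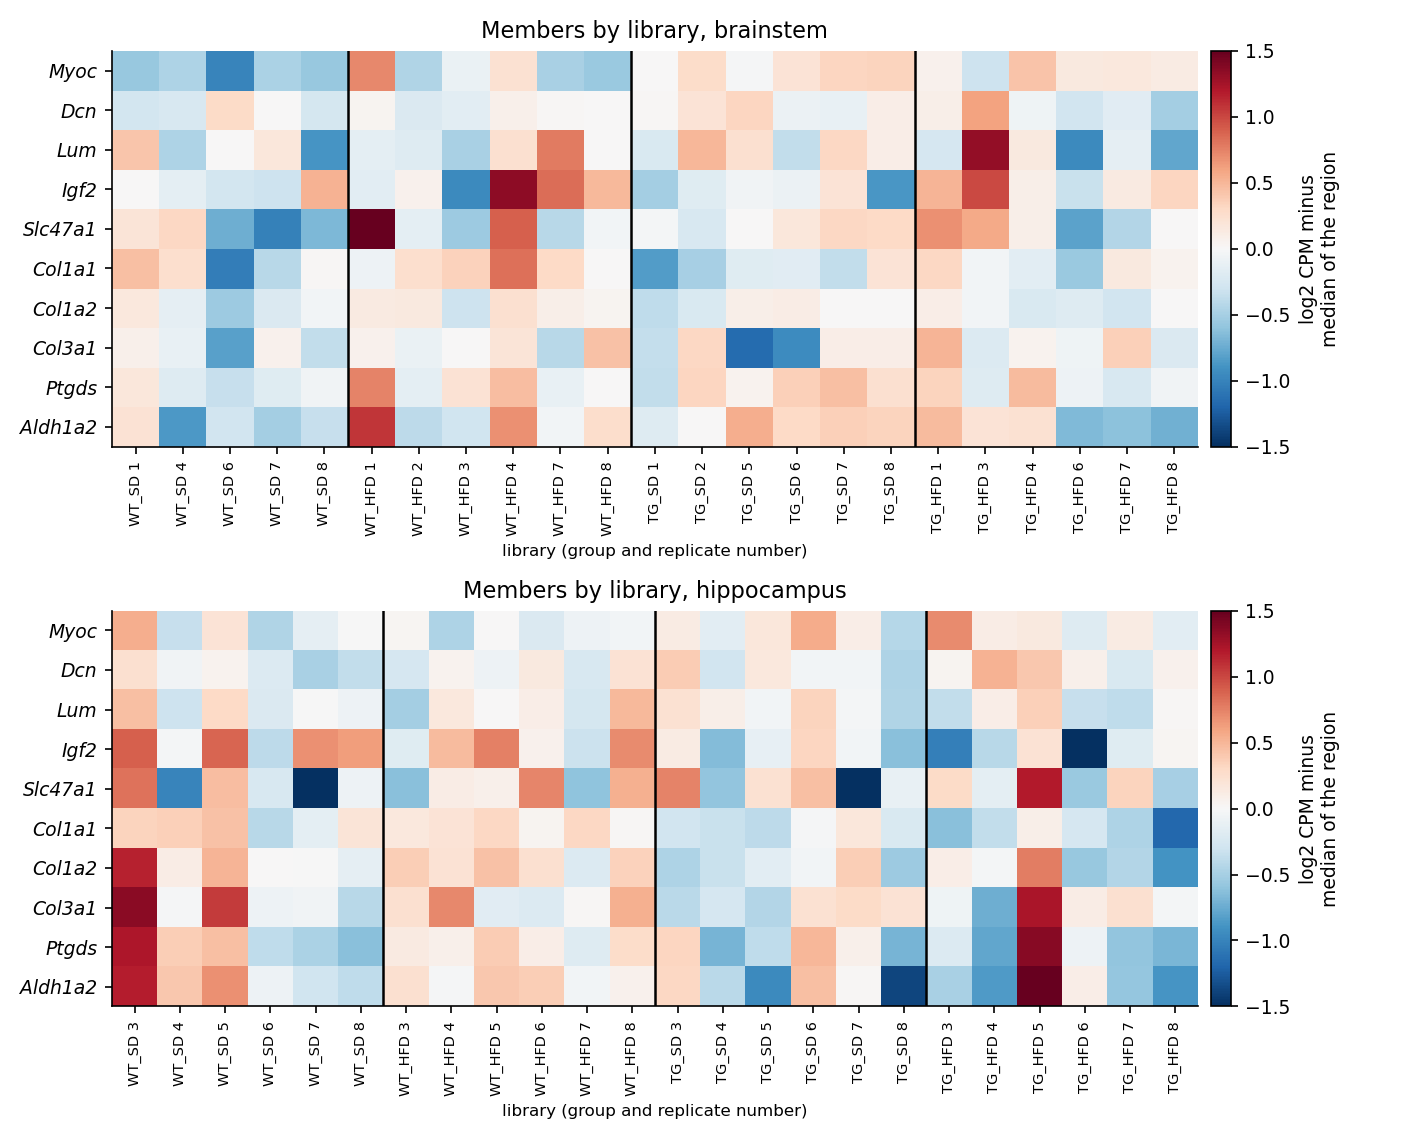
Level of the 10 members in every library as log2 CPM minus the median of the region (colour scale from -1.5 to 1.5), with libraries ordered by group and separated by black lines. Replicates 1 and 4 of WT_HFD stand out in brainstem and replicate 3 of WT_SD and replicate 5 of TG_HFD in hippocampus, each across several members.

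After the group means were subtracted, members moved together more in hippocampus than in brainstem. Over the 45 pairs of members, Pearson's r of the deviations had a median of 0.48 in hippocampus (24 libraries) and of 0.28 in brainstem (23 libraries), and was positive for 45 and 36 pairs. It was higher in hippocampus for 33 of the 45 pairs. The closest pair was Ptgds and Aldh1a2 in hippocampus with r = 0.94 and in brainstem with r = 0.68. Dcn and Lum, which are neighbours on chromosome 10, had r = 0.72 in brainstem and 0.71 in hippocampus. Col1a1 and Col1a2, the chains of the type I collagen trimer, had r = 0.67 and 0.61. These correlations are descriptive, since the libraries share depth, composition and dissection, and in hippocampus a few libraries high in several members weigh on them.

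**Figure D4:**
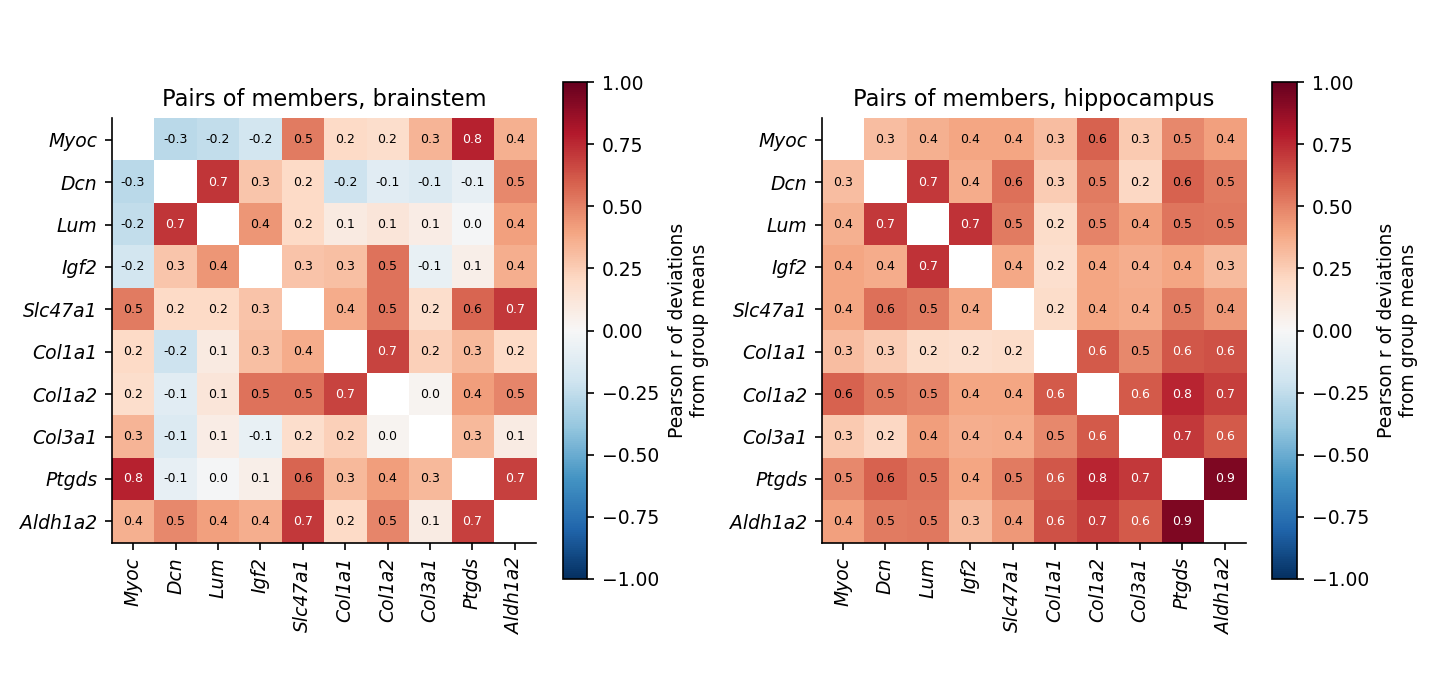
Pearson's r between members over the deviations of log2 CPM from the group means, for 23 brainstem and 24 hippocampus libraries (colour scale from -1 to 1, values printed to 1 decimal). All 45 pairs are positive in hippocampus, with Ptgds and Aldh1a2 highest at 0.94, whereas Myoc in brainstem is close to Ptgds (0.77) and negative with Dcn (-0.27), Lum and Igf2.

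Myoc was not equally close to all fibroblast genes. In brainstem its deviations followed those of Ptgds, with Pearson's r = 0.77 and Spearman's rho = 0.68 over 23 libraries, a value exceeded by few genes (percentile 99.97 of those tested). Slc47a1 came next with r = 0.52, which fell to 0.14 when the libraries with the highest and the lowest Myoc level were left out. Ptgds kept 0.68 without them. Aldh1a2 had r = 0.35, Col3a1 0.34, Col1a1 0.20 and Col1a2 0.17, whereas Dcn had r = -0.27, Lum -0.24 and Igf2 -0.19. In hippocampus all 9 were positive with Myoc, from 0.26 for Col3a1 to 0.59 for Col1a2, and Ptgds had 0.48. Outside the list, the genes most like Myoc in brainstem were Samd1 (r = 0.78), Slc3a2 (0.77), Marcksl1 (0.76), Arhgdig (0.76) and Ppp1r1a (0.75). In hippocampus they were Mtln (0.74), Rcn3 (0.73), Garem2 (0.72), Lhx2 (0.70) and Hpcal4 (0.70). No gene was among the 5 nearest in both regions.

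Differences in GC content between the transcripts went along with some of these correlations in brainstem. The longest transcript of Myoc has 54.1% GC (percentile 74.8 of the genes tested in brainstem), that of Ptgds 56.4% and that of Col1a1 58.9%, whereas Dcn has 37.4% (percentile 1.57) and Lum 41.9%. For each library the slope of log2 CPM on GC content was computed relative to the mean library. In brainstem it ran from -0.33 to 0.18 per 10% GC, and its within-group deviations had r = 0.52 with Myoc, 0.48 with Ptgds and -0.68 with Dcn. The median slope was 0.05 in WT_SD, 0.13 in WT_HFD, -0.06 in TG_SD and -0.02 in TG_HFD. Replicate 6 of WT_SD had the lowest slope of its group, -0.16. Not all members followed GC content in brainstem. Igf2, with 55.8% GC, had r = -0.06 with the slope and -0.19 with Myoc. Slc47a1, with 50.5% GC, had 0.13 and 0.52. In hippocampus r with the slope was 0.35 for Myoc, 0.24 for Ptgds and -0.16 for Dcn, and Dcn had r = 0.31 with Myoc. After a GC correction, r between Myoc and Ptgds in brainstem was 0.70 and that between Myoc and Dcn was -0.03. The log2 fold change of Myoc for TG_SD/WT_SD was 0.85 with the GC correction and 4 surrogate variables, where it was called, and 0.86 with the GC correction alone, where it was not.

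The 2 regions differed for most members. Joint scaling of both tables left 6 members that averaged 50 or more counts across the 47 libraries, and all 6 differed between regions, beside 60.2% of the 13458 genes tested. Ptgds was lower in hippocampus by a log2 difference of -1.52 (SE 0.14) and Col1a2 by -1.49 (SE 0.092), with adjusted p of 1.58e-14 and 2.28e-20 in edgeR. Aldh1a2 was lower by -0.48 (SE 0.17, adjusted p = 0.00674 in edgeR). Dcn was higher in hippocampus by 0.96 (SE 0.072, adjusted p = 5.52e-17 in edgeR), Lum by 0.57 (SE 0.13) and Myoc by 0.38 (SE 0.089). Genes called lower in hippocampus made up 31% of those tested and genes called higher 29.2%, so that a call between regions was common and 3 members in each direction do not set the list apart. With the lenient filter Slc47a1 (-1.47, SE 0.21) and Col3a1 (-1.06, SE 0.14) were called lower as well, and Col1a1 was not called (-0.16, SE 0.099). Of the 18664 genes tested with that filter 63.4% were called, 30.6% higher and 32.8% lower in hippocampus. For Aldh1a2 the direction turned when WT_SD libraries alone were compared, with a value of 0.13. On the CPM scale set within each region, the libraries of the 2 regions overlapped for each of these members. The regions can share animals, and since the labels do not link the libraries the fit had no animal term and its p values treat all 47 libraries as independent. Handling that differed between regions cannot be told apart from region.

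**Figure D5:**
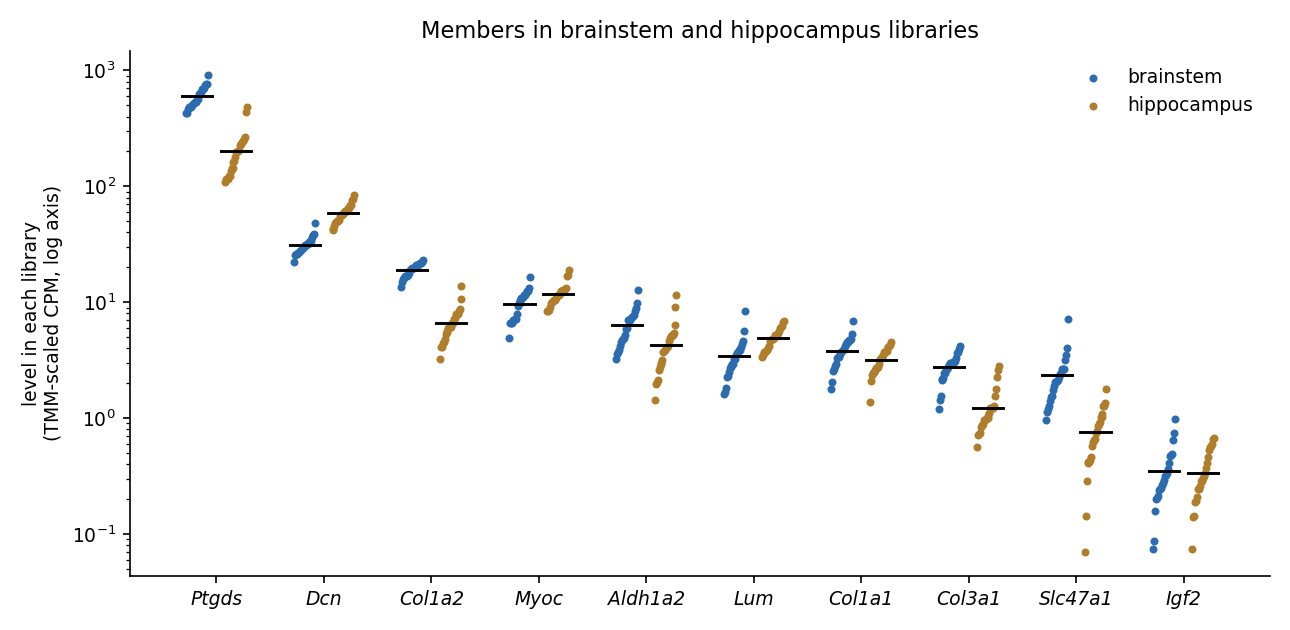
Level of each member in every library (points, TMM-scaled CPM within the region, log axis; 1 hippocampus library without Igf2 counts is not drawn) for 23 brainstem and 24 hippocampus libraries, with the mean as a black line. Ptgds, Col1a2, Slc47a1 and Col3a1 lie lower in hippocampus and Dcn and Lum higher, and levels of different genes are not comparable on this scale.

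Genes related to the members by function were looked at in 8 lists with 139 entries, of which 85 were tested in brainstem and 83 in hippocampus. No gene of these lists was called in brainstem in any of the 5 contrasts. In hippocampus the fibronectin gene Fn1, from the list of leptomeningeal and perivascular fibroblast genes, was called lower for TG_HFD/WT_HFD, with a log2 fold change of -0.44 (SE 0.092) and an adjusted p of 0.0209 in edgeR. In this contrast 0.226% of the genes tested were called. Of the 27 genes of this list tested in hippocampus, 22 had a negative value for TG_HFD/WT_HFD (median -0.10) and 21 for TG_SD/WT_SD (median -0.11). The medians over all genes tested were -0.005 and -0.0006. Myoc had positive values in both contrasts. The genes of the list share libraries, so that a common sign is no repeated observation. Members of the other lists with the largest difference in TG_HFD/WT_HFD were not called. They were Col15a1 (0.28) and Col6a1 (0.36) among other collagens, Prelp (0.14) and Bgn (0.33) among small leucine-rich proteoglycans, and Plod2 (0.32) and Plod3 (0.27) among enzymes of collagen processing, each given for brainstem and then hippocampus. Rdh10 (-0.18) and Rara (-0.36) had the largest difference among retinoid genes, Igf1 (0.23) and Igfbp7 (-0.30) in the IGF list, Hpgds (-0.26) and Slco2a1 (0.31) in the prostaglandin list, and Olfml3 (0.23) and Olfm3 (-0.19) in the olfactomedin family. Fbln2 had the largest difference of the fibroblast list in brainstem, with 0.52 (SE 0.20).

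The summed level of the fibroblast list, 44 genes without the members, had unequal correlations with the members. In brainstem Apod made up most of this sum, with a mean of 554 CPM beside group medians of the sum from 833 to 917 CPM, and in hippocampus Ccn3 was its most abundant gene, with 137 CPM beside 499 to 548 CPM. Its within-group deviations had r = 0.51 with Myoc, 0.53 with Slc47a1 and 0.50 with Ptgds in brainstem, but -0.10 with Col1a2 and 0.01 with Lum. In hippocampus r was 0.74 with Ptgds, 0.73 with Aldh1a2, 0.65 with Dcn and 0.25 with Myoc. The small leucine-rich proteoglycans other than Dcn and Lum had r = 0.88 with Ptgds and 0.82 with Aldh1a2 in hippocampus. Since the fibroblast sum is mostly Apod in brainstem, its correlations there cannot be read as those of the list as a whole. Whether these sums follow fibroblasts was not tested.

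Markers of other cell types were measured in the same libraries, in 13 lists with 87 entries. The choroid plexus list varied widely in brainstem, where its most abundant gene Ttr (transthyretin) ran from 7.01 to 2874 CPM over the 23 libraries. The lowest library of each brainstem group had between 7.01 and 22.6 CPM of Ttr and the highest between 1491 and 2874 CPM. In hippocampus Ttr ran from 12.5 to 270 CPM. The summed choroid plexus list had r = 0.61 with Lum, 0.54 with Col3a1, -0.16 with Myoc and -0.06 with Ptgds in brainstem, and 0.15 with Myoc in hippocampus. Of the libraries that stood out for the members, replicate 1 of WT_HFD in brainstem had 22.6 CPM of Ttr, the least in its group, and replicate 4 had 1001 CPM. In hippocampus, replicate 3 of WT_SD had 38.0 CPM of Ttr, and replicate 5 of TG_HFD had 128 CPM, the most in its group. Mural cell markers had r = 0.75 with Ptgds and 0.74 with Col1a2 in hippocampus, and border macrophage markers had r = 0.66 and 0.76. Schwann cell markers, mostly Pmp22, had r = 0.62 with Myoc and 0.59 with Ptgds in brainstem. Arachnoid barrier markers, mostly Cldn11 (also a gene of myelin), had r = -0.57 with Myoc in hippocampus. Oligodendrocyte markers had r = 0.57 with Myoc and 0.35 with Ptgds in brainstem, and -0.30 and -0.28 in hippocampus. The part of these cell types in the results on the members was not tested.

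The summed levels of all 13 marker lists overlapped between TG_SD and WT_SD in brainstem. Oligodendrocyte markers ranged from 15546 to 17473 CPM in TG_SD and from 14241 to 17617 CPM in WT_SD. Mural markers ranged from 295 to 338 and from 279 to 350 CPM, and arachnoid barrier markers from 227 to 275 and from 210 to 253 CPM, of which Cldn11, also a gene of myelin, made up most with a mean of 206 CPM. Astrocyte markers ranged from 1269 to 1463 CPM in TG_SD and from 1111 to 1334 CPM in WT_SD, and endothelial markers from 353 to 399 and from 335 to 399 CPM. In this contrast the fitted log2 fold changes were positive for 5 of 5 astrocyte markers (median 0.16), 6 of 6 oligodendrocyte markers (median 0.03) and 8 of 9 endothelial markers (median 0.07), and negative for 5 of 5 blood markers (median -0.35), beside a median of 0.00 over all genes. For TG_HFD/WT_HFD in brainstem, 5 of 5 astrocyte markers (median 0.09) and 5 of 5 blood markers (median 0.55) were positive. So were 2 of 6 oligodendrocyte markers (median -0.01) and 2 of 9 endothelial markers (median -0.02), beside a median of 0.01 over all genes. The markers of a list share libraries, and their part in the result on Myoc was not tested. Of the 87 marker entries, 55 were tested in brainstem and 51 in hippocampus. Among them Cldn5, which encodes a tight junction protein of endothelial cells, was called in the contrast in which Myoc was called, with a log2 fold change of 0.39 (SE 0.084) and an adjusted p of 0.0284 in edgeR for TG_SD/WT_SD in brainstem, and no other marker was called in any contrast.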

How the data were processed

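Poly(A) RNA was sequenced from brainstem and hippocampus of TG and WT mice. According to the paper's methods and the submitters' processing notes, the authors aligned single-end reads with STAR 2.7.9a to the Ensembl mouse genome, and deposited raw read counts per gene and library, 1 table per region. The tool and strand setting used for counting are not given in the sources used here. Replicate numbers come from the labels, and 0 columns were left unassigned. The identity and level of the transgene are not reported here.

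Groups were taken from the labels. Counts were analysed in R 4.3.3 with edgeR 4.0.16 (TMM, quasi-likelihood test), limma 3.58.1 and sva 3.50.0. Genes averaging 50 or more counts in a region were fitted on the whole table with 4 groups and 4 surrogate variables (num.sv by permutation with 20 rounds, then svaseq), and p values were adjusted by Benjamini-Hochberg over all genes of a contrast. Calls required an adjusted p up to 0.05 and a log2 fold change of 0.3 or more in either direction. The regions were compared in a joint fit of 8 groups without surrogate variables. Log2 CPM used a prior count of 2. The study used separate animals within a region. Symbols, exon lengths and GC content came from GENCODE M21 (GRCm38), another build than the alignment, and GC content was known for 99.8% and 99.9% of tested genes. On simulated counts of TG_SD/WT_SD with 100 changed genes for each fold size, 87% of 1.5-fold and 99% of 2-fold changes were recovered in brainstem (13340 genes) and 96% and 100% in hippocampus (13272 genes), with 8 and 11 false calls. The simulated fits chose 0 and 1 surrogate variables, so that this recovery was not measured for fits with 4.

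The members, lists and motifs were chosen with earlier results of these data known. All members are named, together with the 5 other genes most like Myoc in each region, the called or largest-differing gene of each related list and the most abundant or called marker. Alternatives were DESeq2 1.42.0, RLE scaling, 0 to 3 surrogate variables, other filters, no fold threshold, a replicate block, only the 2 groups compared, and each library left out. The GC correction was added after seeing the data. Python 3.11.15, pandas 2.3.3 and matplotlib 3.10.9 served for summaries and figures.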

Additional observations from a re-analysis of the deposited data

Results flagged for a closer look

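Over the 80 combinations of member, region and group, the highest or lowest library stood apart from the others by Dixon's criterion in 5, where chance gives about 4. The ratios below are the gap to the nearest library divided by the range of the group on the log2 CPM scale. Myoc in brainstem was low in replicate 6 of WT_SD, at 4.90 CPM beside 6.61 for the next library (ratio 0.798). This library also decides the call of Myoc. Myoc in hippocampus was high in replicate 3 of TG_HFD, at 18.95 CPM beside 12.8 (0.630). Col1a2 was low in replicate 3 of WT_HFD in brainstem, at 15.9 CPM beside 20.2 (0.636), and in replicate 7 of WT_HFD in hippocampus, at 5.28 CPM beside 7.14 (0.650). Ptgds in hippocampus was high in replicate 5 of TG_HFD, at 482 CPM beside 178 (0.670). No member was called for the interaction of genotype and diet in either region.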

How the results depend on the processing

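The log2 fold change of Myoc in brainstem for TG_SD/WT_SD kept its direction under all 14 settings other than leaving out a library, between 0.82 and 1.14, and was called in 10. It was not called, so that 0 members were, with 0 surrogate variables (0.82), with 1 (0.89), with a replicate block without surrogate variables (0.96), and with a GC correction without surrogate variables (0.86), the last chosen after seeing the data. With the replicate block and surrogate variables it was 1.14 and called. The setting without a threshold on the fold change kept the main fit, so that the call could not be lost there. Myoc was chosen by this contrast, so that these counts only describe it. Same-numbered libraries did not deviate together in this contrast (correlations from -0.26 to 0.17 over 4 pairs), so that the numbers were not taken as pairs. Leaving out each library gave 0 to 1 members called and a log2 fold change from 0.67 to 0.96. Without a filter on low counts 2 members were called, the other being Ptgds (0.37). DESeq2 without surrogate variables gave 0.82 and a call. With surrogate variables, a setting not counted among the 14, DESeq2 gave no adjusted p for Myoc. With filterByExpr 5 members were lower in hippocampus, and with WT_SD groups only the difference of Aldh1a2 reversed to 0.13. The median r of the other members with Myoc in hippocampus was 0.53 without the libraries of highest and lowest Myoc level, beside 0.40. In brainstem it was 0.20, and 0.10 without those libraries and -0.02 after GC correction. The causes were not tested. Depth limits Igf2, Slc47a1, Col3a1, Col1a1 and, in brainstem, Lum.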
